A study of Mus musculus with 4 samples.

Results

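Nuclei from the arcuate region (ARC) of the mouse hypothalamus that carried many transcripts of Ghrh, the gene of growth hormone-releasing hormone, numbered 183 of 39176 kept nuclei. They were chosen by their own counts of unique molecular identifiers (UMIs, 1 per captured transcript). A member held at least 3 Ghrh UMIs that made up at least 0.1% of its UMIs, fewer than 5 UMIs of Agrp, and less than 0.2% of its UMIs from Pomc. The last limits keep out the AgRP and POMC neurons of the same tissue. Members were described against 30037 other neurons, which were nuclei with at least 2 UMIs of the synaptic genes Snap25 and Syt1 combined. The tissue came from wildtype male C57BL/6J mice, 10 weeks old, that had received deoxycorticosterone acetate with a saline drink (DOCA-salt) or a sham procedure (Sham) for 3 weeks. Each treatment has 2 libraries, and each library pools the nuclei isolated from ARC punches of a pair of mice, so that single animals cannot be told apart. Values below are given in the order DOCA-salt 1, DOCA-salt 2, Sham 1 and Sham 2.

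GHRH neurons of the ARC send axons to the median eminence, where the peptide enters the portal blood and makes the pituitary release growth hormone. Somatostatin opposes that release, and growth hormone, insulin-like growth factor and ghrelin feed back on the ARC through their receptors. In rodents many GHRH neurons also hold galanin, the dopamine-synthesis enzyme tyrosine hydroxylase and inhibitory transmitter genes. Gsx1, a homeodomain transcription factor, is required for Ghrh expression in mice.

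The Ghrh gene lies on the minus strand of chromosome 2 (GRCm38, 157329497 to 157347506, ENSMUSG00000027643), and no other annotated gene overlaps it. RefSeq gives it a pair of starts in GRCm38.p6. The 250 bases before each start are shown 5′ to 3′ because homeodomain factors such as Gsx1 bind cores with the letters TAATTA. Capitals mark TAATTA, which reads the same on both strands, and TATAAA, the TATA box, searched on both strands. The downstream start, first below (chr2:157337427-157337676), holds TAATTA beginning 243 and 153 bases before the start and TATAAA beginning 31 bases before it. The upstream start (chr2:157346656-157346905) holds neither.
Ghrh, downstream start: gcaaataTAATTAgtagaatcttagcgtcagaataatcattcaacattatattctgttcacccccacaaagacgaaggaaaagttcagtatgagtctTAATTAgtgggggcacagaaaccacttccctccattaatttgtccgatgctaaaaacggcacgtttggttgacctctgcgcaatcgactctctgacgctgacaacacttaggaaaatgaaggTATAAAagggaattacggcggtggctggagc
Ghrh, upstream start: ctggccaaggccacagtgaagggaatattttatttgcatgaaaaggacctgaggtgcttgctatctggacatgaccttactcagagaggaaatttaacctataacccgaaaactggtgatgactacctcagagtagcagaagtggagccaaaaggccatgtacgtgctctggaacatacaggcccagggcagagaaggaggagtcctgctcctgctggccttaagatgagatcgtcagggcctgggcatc
Of 32851 RefSeq starts, 4.84% hold TAATTA and 12.4% hold TATAAA in the same window. A match of letters is a description and not a bound site.

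The members were 91, 33, 9 and 50 nuclei of the 4 libraries. Sham 1 stood apart before any comparison: it has 2203 kept nuclei, against 10307, 18907 and 7759 in the others, nearly all of them neurons, and its 9 members had a median of 12076 UMIs against 3391, 3793 and 5733.5. Summed over members, the libraries hold 460914, 146432, 114516 and 348812 UMIs, which sets the precision of everything below: in Sham 1, 1 UMI is worth 8.73 CPM (counts scaled to a sum of 1e6 UMIs). The median member carried 11, 8, 22 and 14 Ghrh UMIs, and the highest carried 124, 104, 171 and 198. Ghrh thus varied widely among nuclei that passed the same rule, and 107 of 183 members held 10 or more UMIs. No barcode was a member in more than 1 library. Of the members, 71, 25, 9 and 46 also passed the neuron limit.

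Near the threshold, 13 members held exactly 3 Ghrh UMIs, and the lowest Ghrh shares inside were 0.103%, 0.1%, 0.1% and 0.1%. Just outside, 142 nuclei with 3 or more Ghrh UMIs had shares below the limit, the highest being 0.0996%, 0.0968%, 0.0762% and 0.0991%. Those nuclei were deep, with median totals of 7457, 10152.5, 17534 and 11943 UMIs and median Ghrh counts of 4, 4, 3 and 5. A further 13 nuclei (10, 0, 0 and 3) met the Ghrh limits but not those on Agrp and Pomc. At least 1 Ghrh UMI was present in 4.91%, 2.34%, 11.9% and 8.25% of other neurons, and in 1.39%, 0.387%, 0% (0 of 5 nuclei) and 2.87% of oligodendrocyte nuclei, which should lack it.

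**Figure D1:**
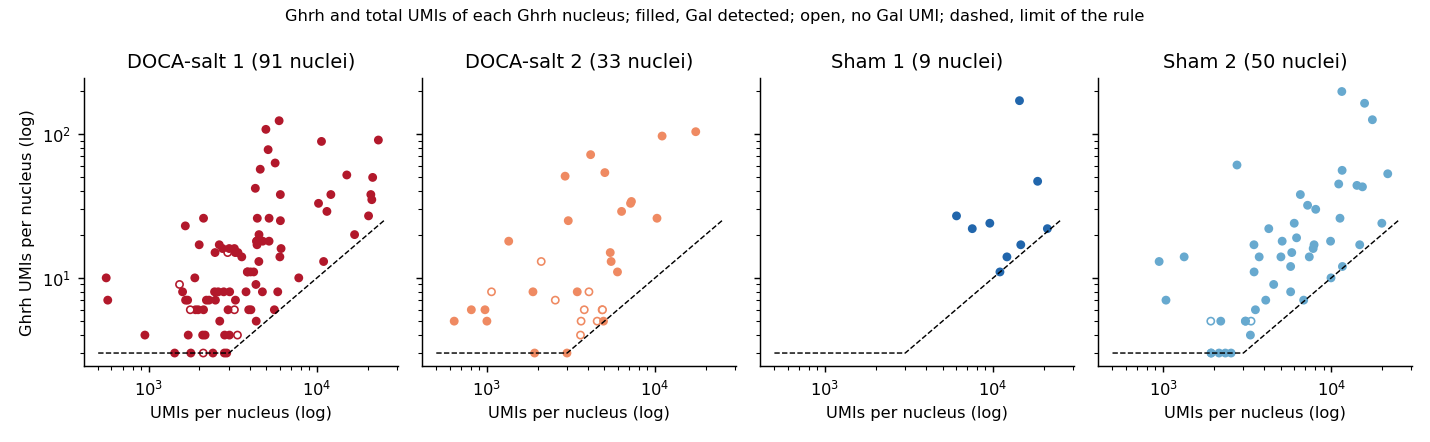
Ghrh UMIs (vertical, log scale) against all UMIs (horizontal, log scale) of each of the 183 members, 1 panel per library; the dashed line is the limit of the rule, and open circles are the 19 members without a Gal UMI. Sham 1 has only 9 points, all in deep nuclei, and DOCA-salt 2 has 9 of the open circles.

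The other markers of GHRH neurons were present in the members. Gal, the galanin gene, stood at 1139, 929, 1519 and 1373 CPM in members and at 36.8, 96.8, 99.5 and 99.8 CPM in other neurons. All 4 libraries were far apart in the same direction, with a fitted log2 fold change of 4.00 ± 0.09. Here and below, the ± of a log2 fold change is the error of the fitted model. It is not the spread of the values between libraries, which can be wider. At least 1 Gal UMI was found in 92.3%, 72.7%, 100% and 94% of members, against 9.08%, 14.8%, 37.8% and 25.4% of other neurons. After every nucleus was thinned to 2000 UMIs, which leaves 75, 25, 9 and 44 members, these shares were 81.3%, 52%, 77.8% and 81.8% of members and 5.17%, 9.94%, 13.5% and 13% of other neurons. Oligodendrocyte nuclei, whose median depths were 870, 869, 2074 and 1399.5 UMIs, carried Gal in 1.39%, 3.87%, 20% (1 of 5 nuclei) and 6.56%. They are shallower than the members, so that the thinned shares are the closer match: only 5, 9, 3 and 58 of them reached 2000 UMIs.

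Gsx1 stood at 52.1, 68.3, 61.1 and 43 CPM in members against 4.69, 1.69, 1.66 and 4.03 CPM in other neurons (log2 fold change 4.00 ± 0.36, FDR = 1.1e-25). These levels rest on 24, 10, 7 and 15 UMIs. Th, the tyrosine hydroxylase gene, stood at 124, 47.8, 157 and 106 CPM against 9.86, 8.01, 6.31 and 13.1 CPM (log2 fold change 3.45 ± 0.25, FDR = 1.2e-40). Th was found in 39.6%, 15.2%, 88.9% and 44% of members, and in 25.3%, 4%, 33.3% and 25% after thinning. It was found in no more than 0.820% of oligodendrocyte nuclei of any library. DOCA-salt 2 was the lowest library for Gal and Th in both readings. Of all members, 15 had no UMI of Gal, Gsx1 or Th, and 8 of these 15 were in DOCA-salt 2, where they made up 24.2% of members against 4.4%, 0% and 6% elsewhere. Gal, Gsx1 and Th were thus higher in members than in other neurons in every library, and members without any of them were most frequent in DOCA-salt 2.

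Beyond the genes of the rule, 436 of 14191 genes tested (3.07%) were higher in members than in other neurons of the same library and 448 (3.16%) were lower (edgeR, FDR under 0.05). Of these, 334 were higher and 375 lower in every library. The count depended on the tool, since DESeq2 called 262 higher and 114 lower, and on the libraries, with 373 calls without DOCA-salt 1 and 474 without Sham 2. The 10 largest increases that held in every library and reached 50 CPM in at least 2 of them were Slc18a3, Mbnl3, Neb, Slc10a4, Gsx1, Gal, Th, Ghsr, Syndig1l and Esr1, with log2 fold changes from 2.28 to 4.66. Each of these 10 stayed past the threshold in all 15 alternative settings.

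The 10 largest decreases by the same rule were Avp, Oxt, Arpp21, Tac1, Zic1, Nptx1, Sst, Kcnh7, Gda and Oprk1, from -3.31 to -1.63. Of these, Sst, Gda and Oprk1 stayed past the threshold in all 15 settings, Tac1 in 13 and the other 6 in 14, with FDR up to 0.28.

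Several genes of acetylcholine neurons were among the increases. Slc18a3 encodes the vesicular acetylcholine transporter and stood at 73.8, 27.3, 34.9 and 71.7 CPM in members against 6.31, 0.295, 0.475 and 1.59 CPM in other neurons (log2 fold change 4.66 ± 0.37, FDR = 1.5e-33). Members exceeded other neurons in every library, on 34, 4, 4 and 25 UMIs. Chat, the acetylcholine-synthesis enzyme, stood at 28.2, 0, 17.5 and 25.8 CPM against 6.07, 0.0932, 0.522 and 0.877 CPM (log2 fold change 3.20 ± 0.51, FDR = 3.8e-08), with no UMI in the 33 members of DOCA-salt 2. Slc18a3 lies inside Chat on the same strand of chromosome 14 (32462438 to 32464850 within 32408203 to 32465989), so reads of the 2 genes may not be fully separable. Slc10a4, a transporter of cholinergic and monoaminergic vesicles on chromosome 5, is clear of other genes. It stood at 135, 95.6, 61.1 and 103 CPM against 14.3, 4.19, 1.47 and 3.92 CPM (log2 fold change 4.10 ± 0.28, FDR = 8.4e-46). Slc5a7, the choline transporter, did not pass the test (21.7, 0, 0 and 8.6 CPM against 32.5, 4.55, 2.14 and 3.67 CPM, FDR = 0.83).

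The levels of inhibitory transmitter genes in members did not pass the test against other neurons. Gad2, a GABA-synthesis enzyme, stood at 564, 492, 795 and 725 CPM against 464, 649, 587 and 580 CPM (log2 fold change 0.17 ± 0.09, FDR = 0.39). Gad1 and Slc32a1, the vesicular GABA transporter, also did not pass (FDR = 0.97 and 0.61). At least 1 UMI of these 3 genes was found in 96.7%, 78.8%, 100% and 96% of members, and in 88%, 68%, 100% and 90.9% after thinning. Among other neurons the thinned shares were 65.5%, 75.9%, 74.9% and 73.8%, so DOCA-salt 2, with 17 of 25 nuclei, was the only library whose members lay below. Oligodendrocyte nuclei, which should lack these genes and are shallower, carried a UMI of them in 20.8%, 32.5%, 40% (2 of 5) and 41.4%, and after thinning in 0 of 5, 4 of 9, 1 of 3 and 29 of 58 nuclei. Slc17a6, the vesicular glutamate transporter, was lower in members (91.1, 184, 166 and 109 CPM against 198, 176, 245 and 225 CPM, log2 fold change -0.80 ± 0.14, FDR = 1.3e-06), with DOCA-salt 2 again the exception.

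Of the dopamine genes, only Th was called higher. Ddc, which completes dopamine synthesis, stood at 21.7, 68.3, 69.9 and 60.2 CPM against 53.4, 37.9, 62.7 and 53 CPM (FDR = 0.82). Slc6a3, the dopamine transporter, was at 6.51, 0, 0 and 8.6 CPM, and Slc18a2, the vesicular monoamine transporter, was lower than in other neurons (log2 fold change -0.78 ± 0.24, FDR = 0.021). Of the 18 genes fixed for transmitter identity, 15 were tested, 4 were higher (Slc18a3, Th, Chat and Nos1) and 4 lower. Their median log2 fold change was -0.17, beside -0.07 over all genes tested, of which 3.07% were higher and 3.16% lower.

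**Figure D2:**
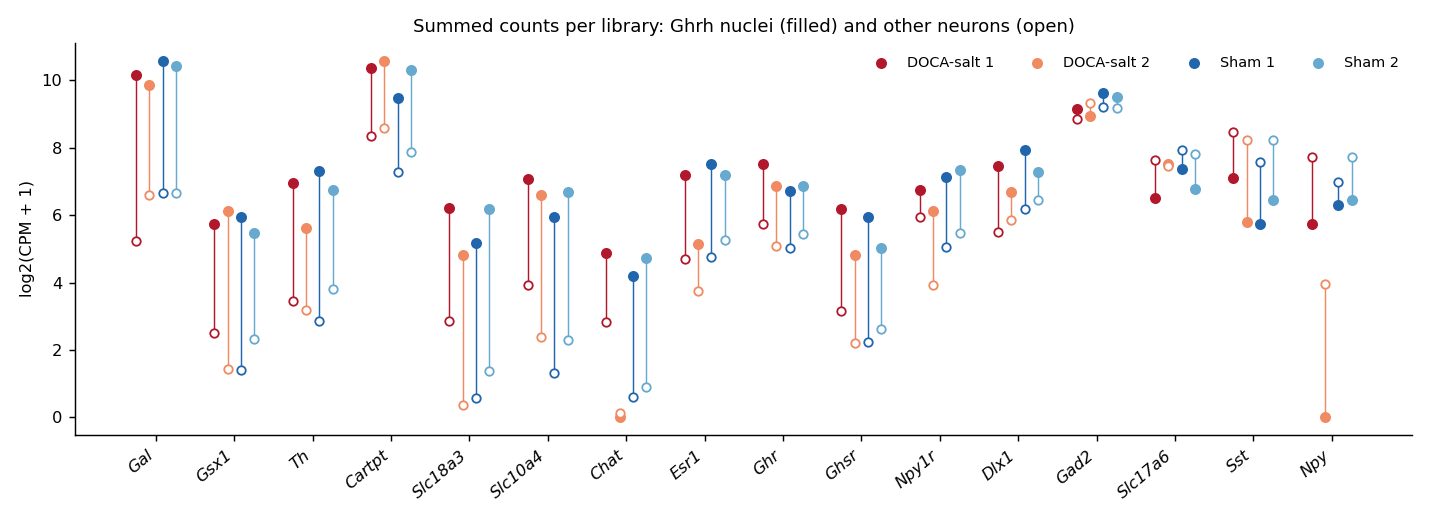
Level of 16 genes as log2(CPM + 1) of the counts summed over members (filled) and over other neurons (open), with 1 colour per library and a line joining the pair. Gal, Gsx1, Th, Cartpt, Slc18a3 and Slc10a4 are higher in members in all 4 libraries, Gad2 overlaps, and Sst and Npy are lower in all 4.

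Among 22 neuropeptide genes tested of 26 fixed, 6 were higher and 9 lower in members. Their median log2 fold change was -1.17, beside -0.07 over all genes tested, of which 3.07% were higher and 3.16% lower. Cartpt, the precursor of the feeding-related CART peptide, stood at 1315, 1543, 716 and 1279 CPM in members against 323, 383, 155 and 234 CPM (log2 fold change 2.15 ± 0.09, FDR = 9.4e-125), and Sham 1 was the lowest library in both. After thinning, a Cartpt UMI was found in 74.7%, 64%, 55.6% and 79.5% of members and in 25.6%, 16%, 20.8% and 23.3% of other neurons, beside 0 of 5, 2 of 9, 1 of 3 and 8 of 58 oligodendrocyte nuclei. Without thinning, the Cartpt shares were 85.7%, 78.8%, 88.9% and 86% of members, 35.3%, 24.6%, 53.2% and 39% of other neurons and 8.33%, 12.6%, 20% and 15.6% of the shallower oligodendrocyte nuclei. Sst, the somatostatin gene, was lower, at 137, 54.6, 52.4 and 86 CPM against 354, 299, 191 and 299 CPM (log2 fold change -1.69 ± 0.14, FDR = 5.3e-29). Npy was also lower (52.1, 0, 78.6 and 86 CPM against 213, 14.5, 127 and 209 CPM), but Npy is a partner of Agrp and the rule limits Agrp. Set against only those other neurons that met the limits on Agrp and Pomc, its log2 fold change was -0.46 (FDR = 0.19). The genes called higher were Gal, Cartpt, Tac2, Penk, Trh and Grp, and those called lower were Sst, Npy, Tac1, Nts, Adcyap1, Pmch, Hcrt, Avp and Oxt. Grp, the gastrin-releasing peptide gene, rested on 1, 6, 1 and 10 UMIs (2.17, 41, 8.73 and 28.7 CPM against 2.92, 12.4, 3.84 and 3.48 CPM, log2 fold change 1.87 ± 0.49, FDR = 0.0041). Both vasopressin and oxytocin genes were lower in every library, Avp at 4.34, 20.5, 26.2 and 20.1 CPM against 6.91, 479, 80.2 and 190 CPM and Oxt at 2.17, 88.8, 26.2 and 94.6 CPM against 8.57, 938, 173 and 417 CPM.

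Several peptide calls rested on few nuclei. Tac2, the neurokinin B precursor, was called higher (log2 fold change 1.22 ± 0.15), but 80.9% of its 68 UMIs in Sham 1 came from 1 nucleus. Trh, the thyrotropin-releasing hormone precursor, was called higher at 21.7, 1967, 61.1 and 97.5 CPM, with only DOCA-salt 2 high, and without DOCA-salt 2 the log2 fold change was -0.34 (FDR = 0.51). Penk, the enkephalin precursor, was called higher (log2 fold change 0.62 ± 0.15, FDR = 0.0011), although it was lower than in other neurons in DOCA-salt 1. Its direction turned to -0.14 (FDR = 0.89) without Sham 2.

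All 33 transcription factors of the list were tested. Of these, 7 were higher in members and 5 lower. The median log2 fold change was -0.23, beside -0.07 over all genes tested, of which 3.07% were higher and 3.16% lower. Dlx1 stood at 174, 102, 245 and 155 CPM against 44.3, 57.5, 71.1 and 87.3 CPM (log2 fold change 1.38 ± 0.15, FDR = 2.1e-18). Prox1, a homeobox regulator of neuronal differentiation, stood at 148, 54.6, 69.9 and 123 CPM against 34.3, 31.1, 30.7 and 37.8 CPM (log2 fold change 1.69 ± 0.18, FDR = 8.2e-18). Dlx2, Dlx6os1 and Isl1 were also higher. Foxp2 was called higher at 126, 27.3, 148 and 123 CPM against 116, 26.8, 33.6 and 21.8 CPM (log2 fold change 1.08 ± 0.18), with the 2 sets close in both DOCA-salt libraries. It passed in 12 of 15 settings, and without Sham 2 its FDR was 0.29. Otp, a marker of a different peptidergic lineage, was lower (34.7, 61.5, 34.9 and 22.9 CPM against 71.8, 73.9, 61.1 and 63.5 CPM, log2 fold change -0.99 ± 0.23), as were Meis2, Pou3f2, Fezf1 and Zfhx3.

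The receptors of ghrelin and growth hormone were higher in members. Of 27 genes fixed for this axis and for metabolic receptors, 22 were tested, 9 were higher and 2 lower (Igfbp5 and Prlr). Their median log2 fold change was 0.20, beside -0.07 over all genes tested, of which 3.07% were higher and 3.16% lower. Ghsr, the ghrelin receptor, stood at 71.6, 27.3, 61.1 and 31.5 CPM against 7.88, 3.57, 3.70 and 5.18 CPM (log2 fold change 3.11 ± 0.35, FDR = 1.9e-16). Ghr, the growth hormone receptor, stood at 184, 116, 105 and 115 CPM against 52, 33.1, 31.5 and 42.2 CPM (log2 fold change 1.68 ± 0.17, FDR = 4.4e-21). The somatostatin receptor Sstr2 was higher (41.2, 20.5, 26.2 and 14.3 CPM against 13.6, 9.33, 9.25 and 11.1 CPM, FDR = 0.021). The signal carriers downstream of cytokine-type receptors, Stat5b, Stat5a and Stat3, and the inhibitor Socs2 were higher too, with log2 fold changes of 0.68 ± 0.19, 1.40 ± 0.41, 0.70 ± 0.16 and 0.91 ± 0.23. Lepr, the leptin receptor, was at 19.5, 13.7, 0 and 11.5 CPM and did not pass (FDR = 0.59).

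Of 9 steroid and thyroid hormone receptors tested, 3 were higher and 1 lower (Thrb). Their median log2 fold change was -0.26, beside -0.07 over all genes tested, of which 3.07% were higher and 3.16% lower. Esr1, the estrogen receptor alpha gene, stood at 145, 34.1, 183 and 146 CPM against 25.2, 12.4, 26.1 and 37.5 CPM (log2 fold change 2.28 ± 0.19, FDR = 5.2e-31). Pgr, the progesterone receptor, was higher by 1.06 ± 0.16 on the log2 scale, and Nr3c1, the glucocorticoid receptor, by 0.50 ± 0.14 (FDR = 0.011). Nr3c2, the mineralocorticoid receptor through which DOCA acts, was low in members (8.68, 20.5, 8.73 and 11.5 CPM) as in other neurons (17.8, 11.7, 21.2 and 16.1 CPM, FDR = 0.60). In the renin-angiotensin list 5 of 11 genes were tested and only Agtr1a, the angiotensin II receptor, was called (13, 47.8, 0 and 5.73 CPM against 4.63, 1.60, 0.902 and 2.14 CPM, FDR = 0.0013). Its counts were 6, 7, 0 and 2 UMIs, and Sham 1 had none. In DOCA-salt 2, 5 of the 7 UMIs were in the 5 members that held 32 or more Trh UMIs, which are described below.

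Among 40 peptide and monoamine receptors tested, 5 were higher and 6 lower. Their median log2 fold change was -0.40, beside -0.07 over all genes tested, of which 3.07% were higher and 3.16% lower. Npy1r, a neuropeptide Y receptor, stood at 106, 68.3, 140 and 161 CPM against 61.2, 14.4, 32.2 and 43.5 CPM (log2 fold change 1.51 ± 0.18, FDR = 8.2e-15). Npy5r and the melanocortin receptor Mc3r were higher, by 1.68 ± 0.35 and 1.79 ± 0.39. Oprk1, the kappa opioid receptor, Htr2c, a serotonin receptor, and Cnr1, the cannabinoid receptor, were lower by 1.63 ± 0.27, 1.48 ± 0.24 and 1.23 ± 0.19 on the log2 scale.

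Of 21 genes of prohormone processing and secretory granules, 9 were higher and 2 lower, beside 3.07% higher and 3.16% lower over all genes tested, and their median log2 fold change was 0.20 beside -0.07. Vgf, a granule protein precursor, was higher by 1.30 ± 0.10, and Cadps2, which primes dense-core vesicles, by 1.13 ± 0.13. In Sham 1, Vgf stood at 183 CPM in members, which was not above its level in other neurons. The Vgf call passed in 13 of 15 settings. The convertase Pcsk1 was higher (log2 fold change 0.68 ± 0.21) and Pcsk2 lower (-1.04 ± 0.15). Of 32 GABA-A and glutamate receptor subunits, 2 were higher and 13 lower, with a median of -0.42. Gabre, an unusual GABA-A subunit, and the kainate subunit Grik1 were the pair that was higher, by 1.54 ± 0.16 and 1.88 ± 0.15. Of 45 ion channel genes 7 were higher, among them the background potassium channel Kcnk9 (log2 fold change 0.92 ± 0.13), and 13 lower, among them Kcna1 (-2.21 ± 0.39) and Kcnh7 (-1.66 ± 0.32), with a median of -0.40. The sodium pump subunit Atp1b3 was higher in every library (232, 253, 288 and 244 CPM against 104, 113, 109 and 107 CPM, log2 fold change 1.18 ± 0.13, FDR = 3.0e-18), while 2 of the other 14 genes of pump and chloride transport were called, both lower. Corticosteroid target genes gave 1 call of 10 (Errfi1, higher), with a median of -0.11. Immediate early genes gave 2 higher (Fosl2 and Crem) and 2 lower (Egr1 and Egr3) of 14, with a median of 0.07, and cAMP signalling genes gave 2 higher and 2 lower of 24, with a median of -0.19.

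**Figure D3:**
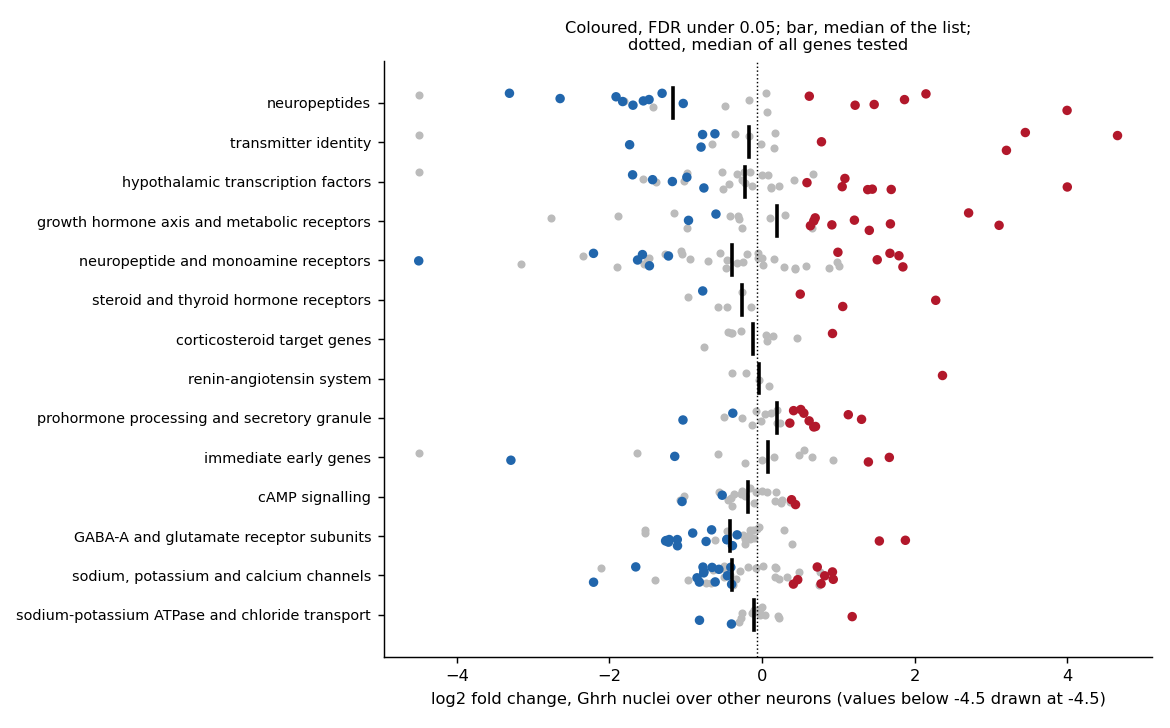
Log2 fold change of members over other neurons (horizontal) for every tested gene of 14 lists (rows), coloured where FDR was under 0.05, with a bar at each list's median and a dotted line at the median of all genes. The median is 0.20 for both the growth hormone axis and the granule genes, -0.42 for GABA-A and glutamate receptor subunits and -0.40 for channels, beside -0.07 over all genes.

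No glial or vascular marker was called higher in members. Oligodendrocyte markers summed to 351, 1646, 2218 and 1422 CPM in members and 655, 1685, 2950 and 2589 CPM in other neurons, of which 4 of 9 genes were called lower. Astrocyte markers summed to 657, 990.2, 533 and 659 CPM against 555, 884, 808 and 814 CPM, led by Agt, with 0 of 7 called. Microglial markers summed to 91.1, 191, 43.7 and 109 CPM against 111, 108, 157 and 149 CPM, with 0 of 8 called, and precursor markers to 84.6, 41, 34.9 and 74.5 CPM against 98.9, 84.8, 98.9 and 106 CPM. Endothelial (4.34, 81.9, 34.9 and 37.3 CPM), mural (4.34, 47.8, 0 and 40.1 CPM) and tanycyte or ependymal markers (39.1, 6.83, 26.2 and 22.9 CPM) were low, and Abcc9, Foxj1 and Tmem212 were at 0 in all members. Of the striatal markers, 4 were lower and Rgs9 higher (197, 143, 175 and 166 CPM, log2 fold change 0.53 ± 0.14). Oligodendrocyte marker levels thus differed between libraries, lowest in DOCA-salt 1 and highest in Sham 1 in both sets, and their part in the results was not tested. The median mitochondrial share was 4.20%, 5.57%, 4.09% and 5.59% of UMIs in members and 4.50%, 5.61%, 5.61% and 5.68% in other neurons.

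The members were not uniform. In DOCA-salt 2, 5 of 33 nuclei held 32 to 81 Trh UMIs each, none of them had a UMI of Slc32a1, Gad1 or Gad2, and 3 had Slc17a6. Their Ghrh counts were 4 to 33. In Sham 2, 2 members held 11 and 12 Trh UMIs, with Ghrh counts of 5 and 53. Of these 2, 1 had a UMI of Slc32a1, Gad1 or Gad2 and 1 had Slc17a6. In DOCA-salt 2, 1 member held 140 Pmch UMIs, the melanin-concentrating hormone precursor, and 5 Ghrh UMIs. A UMI of Pmch was found in 72.7% of DOCA-salt 2 members, but also in 53.2% of its oligodendrocyte nuclei, against 1 of 5 at most elsewhere. The 19 members without Gal were 7, 9, 0 and 3 nuclei, with Ghrh counts no higher than 15, 13 and 5.

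Within members, nuclei with Gal at 2 or more UMIs and at least 0.05% were compared with nuclei without Gal in the pair of libraries that had 5 of each, DOCA-salt 1 and 2. Only Pmch of 1121 genes was called (0.0892%). It was lower in the nuclei with Gal (log2 fold change -4.30 ± 0.43, FDR = 0.017) and stood at 5234 CPM in nuclei without Gal in DOCA-salt 2 but at 0 CPM in DOCA-salt 1. Of the 158 Pmch UMIs behind the 5234 CPM, 140 were in 1 nucleus. DESeq2 called none. Nuclei with 2 or more Th UMIs were compared with nuclei without Th in DOCA-salt 1 and Sham 2 (13 and 9 nuclei against 55 and 28), and 0 of 3243 genes (0%) were called by edgeR and 0 by DESeq2, with 193 genes at an unadjusted p under 0.05.

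Members were also compared with somatostatin neurons without Agrp (388, 572, 45 and 231 nuclei), whose peptide opposes GHRH at the pituitary. Of 7902 genes tested, 268 (3.39%) were higher in members and 219 (2.77%) lower, of which 223 and 178 held in every library. DESeq2 called 110 and 35, and edgeR made 207 calls without DOCA-salt 1 and 211 without Sham 2. Of the named genes higher in members, Gal led at 4.55 ± 0.13, followed by Slc10a4 at 4.47 ± 0.31, Slc18a3 at 4.33 ± 0.40, Gsx1 at 4.12 ± 0.41, Ghsr at 3.39 ± 0.37, Th at 2.98 ± 0.28 and Cartpt at 2.44 ± 0.11 on the log2 scale. These sums use the same members as the comparison with all other neurons, so they are not separate support. Pbx3, a homeobox cofactor, was also higher (60.7, 61.5, 114 and 152 CPM against 29.1, 12.8, 22.9 and 16 CPM, log2 fold change 2.18 ± 0.26). Otp was lower, at 34.7, 61.5, 34.9 and 22.9 CPM against 228, 181, 151 and 239 CPM (log2 fold change -2.62 ± 0.20, FDR = 1.1e-15), and the 2 sets did not overlap. Gpr101, an orphan receptor linked to growth hormone excess in people, was lower in members (156, 41, 96.1 and 100.3 CPM against 304, 170.2, 179 and 344 CPM, log2 fold change -1.32 ± 0.15, FDR = 7.3e-10).

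Dopaminergic neurons with Th and Slc6a3 (18, 18, 0 and 23 nuclei) share Th with the members. Sham 1 had none, so 3 libraries entered. Of 5995 genes, 97 (1.62%) were higher in members and 61 (1.02%) lower, while DESeq2 called 6 and 4, and edgeR made 99 calls without DOCA-salt 1 and 15 without Sham 2. Ghr was higher in members (184, 116 and 115 CPM against 23.1, 19.5 and 13.6 CPM in DOCA-salt 1, DOCA-salt 2 and Sham 2, log2 fold change 2.92 ± 0.34, FDR = 3.1e-07), as were Gal, Gsx1, Slc10a4 and Prox1. In contrast to the comparison with all other neurons, Slc18a3, Chat, Ghsr and Dlx1 were not called here. Of 8 transmitter identity genes tested, 0 were higher. Slc18a2 was lower (49.9, 47.8 and 20.1 CPM against 496, 547 and 220.1 CPM, log2 fold change -3.37 ± 0.22, FDR = 1.4e-13), as were Ddc (-1.63 ± 0.27) and Prlr, the prolactin receptor (128, 27.3 and 132 CPM against 409, 208 and 492 CPM, log2 fold change -1.87 ± 0.18, FDR = 5.5e-09).

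Members were next compared between treatments. Of 5916 genes tested between 2 DOCA-salt and 2 Sham libraries, 3 were called (0.0507%), all lower after DOCA-salt, and 355 had an unadjusted p under 0.05. DESeq2 called 1 gene, also lower. The count was 69, 20, 5 and 11 genes without DOCA-salt 1, DOCA-salt 2, Sham 1 and Sham 2. Each of these fits leaves 1 library in one treatment, which is assumed to vary like the 2 of the other. Penk was the 1 protein-coding gene among the 3 called. It stood at 71.6 and 75.1 CPM in DOCA-salt members and 323 and 226 CPM in Sham members, so the groups did not overlap, and it fell by 1.86 ± 0.34 on the log2 scale (FDR = 0.031). The counts were 33, 11, 37 and 79 UMIs in 22 of 91, 4 of 33, 7 of 9 and 23 of 50 members. In Sham 1, 22 of the 37 UMIs were in 1 nucleus. With the highest nucleus of each library left out, the levels were 62.4, 28.5, 156 and 196 CPM. The thinned shares of members with Penk were 13.3%, 12%, 22.2% and 36.4%, beside 0 of 5, 0 of 9, 1 of 3 and 2 of 58 oligodendrocyte nuclei. The call was lost with DESeq2 (log2 fold change -1.90, FDR = 0.29), without Sham 1 (-1.67, FDR = 0.054) and after thinning the sums to equal size (-1.83, FDR = 0.17). Over the 13 alternatives that gave a value for Penk, the log2 fold change ranged from -2.40 to -1.67.

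Bc1 and Gm42418 are non-coding RNAs, and both were lower after DOCA-salt in members. Bc1 stood at 169 and 300.5 CPM against 1354 and 2715 CPM (fell by 3.20 ± 0.37 on the log2 scale, FDR = 1.3e-04), and Gm42418 at 2452 and 1188 CPM against 6506 and 7591 CPM (fell by 1.94 ± 0.32, FDR = 0.011). In other neurons of the same libraries Bc1 stood at 207 and 304 CPM against 2225 and 3055 CPM and Gm42418 at 3292 and 826 CPM against 10609 and 8473 CPM. A mitochondrial gene, mt-Atp8, stood at 86.8 and 27.3 CPM against 140 and 355 CPM in members, on 40, 4, 16 and 124 UMIs (log2 fold change -2.01 ± 0.42, FDR = 0.12), and passed in 7 of 14 alternatives, with a log2 fold change of -3.28 to -0.99. In other neurons mt-Atp8 stood at 122 and 69.8 CPM against 328 and 438 CPM. Nts, which encodes the peptide neurotensin, stood at 19.5 and 34.1 CPM against 87.3 and 54.5 CPM in members (FDR = 0.67). These 4 genes form a list chosen because earlier results of these data named them, so the members' values are not independent of that choice. Among other neurons, edgeR called 0 of 16371 genes, with 1458 at an unadjusted p under 0.05.

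The genes of the growth hormone axis did not pass between treatments. Ghrh itself, which chose the members and has no test, stood at 3849 and 4774 CPM against 3100 and 3799 CPM. Gal stood at 1139 and 929 CPM against 1519 and 1373 CPM (FDR = 0.86), Cartpt at 1315 and 1543 CPM against 716 and 1279 CPM (FDR = 0.86) and Ghr at 184 and 116 CPM against 105 and 115 CPM (FDR = 0.87). Th overlapped between treatments. None of 10 tested genes of the axis and metabolic list was called, and its median log2 fold change was 0.23 beside 0.02 over all genes. Of 21 granule genes none was called, with a median of 0.23, and Vgf was the largest, at 597 and 833 CPM against 183 and 341 CPM (log2 fold change 1.36 ± 0.33, FDR = 0.40). Vgf passed with no filter of low counts (log2 fold change 1.34, FDR = 0.026) and without DOCA-salt 1 (1.57, FDR = 1.8e-05), and its log2 fold change ranged from 1.03 to 2.00 over 14 alternatives. No call was made among 4 corticosteroid target genes, 3 renin-angiotensin genes and 15 pump and chloride genes tested. Nr3c2 and Agtr1a were too low to be tested.

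Whether DOCA-salt acted differently on members than on other neurons was tested as an interaction. Of 14900 genes, 6 were called (0.0403%; 1 without DOCA-salt 1), 2 with a higher change in members (Trh and Vgf) and 4 with a lower one (Penk, Foxp2, Col6a1 and Pbx3). For Penk the difference of the changes was -2.85 ± 0.29 on the log2 scale (FDR = 2.6e-18). This error and FDR come from the fit and do not give the spread between libraries. The DOCA-salt libraries differed: members stood at 71.6 CPM in DOCA-salt 1, below other neurons, and at 75.1 CPM in DOCA-salt 2, close to them. In other neurons Penk stood at 181 and 73.6 CPM after DOCA-salt and 99.3 and 57.5 CPM in Sham, and without DOCA-salt 1, the highest of these, the difference was -1.90 (FDR = 0.098). Markers of striatal type neurons, which also express Penk, summed to 447, 100.3, 91.6 and 114 CPM in other neurons and to 221, 157, 209.6 and 169 CPM in members, led by Rgs9. In members 0, 3, 2 and 3 of the 5 were at 0. Their median log2 fold change between treatments was 2.04 in other neurons, with 0 of 5 called, so they were high in DOCA-salt 1 as Penk was, and their part in the interaction was not tested. For Vgf, the difference was 1.07 ± 0.21 (FDR = 0.0022), with other neurons at 168 and 269.7 CPM after DOCA-salt and 188 and 174 CPM in Sham, and its call was lost without DOCA-salt 1 (difference 0.86, FDR = 0.91) and without Sham 1 (0.73, FDR = 0.97). The Vgf difference ranged from 0.73 to 1.85 over the 13 alternatives and passed in 9. For Trh, the difference was 2.93 ± 0.27, and it was lost without DOCA-salt 2 (log2 difference 0.45, FDR = 1.0), where 5 nuclei held most of its UMIs.

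**Figure D4:**
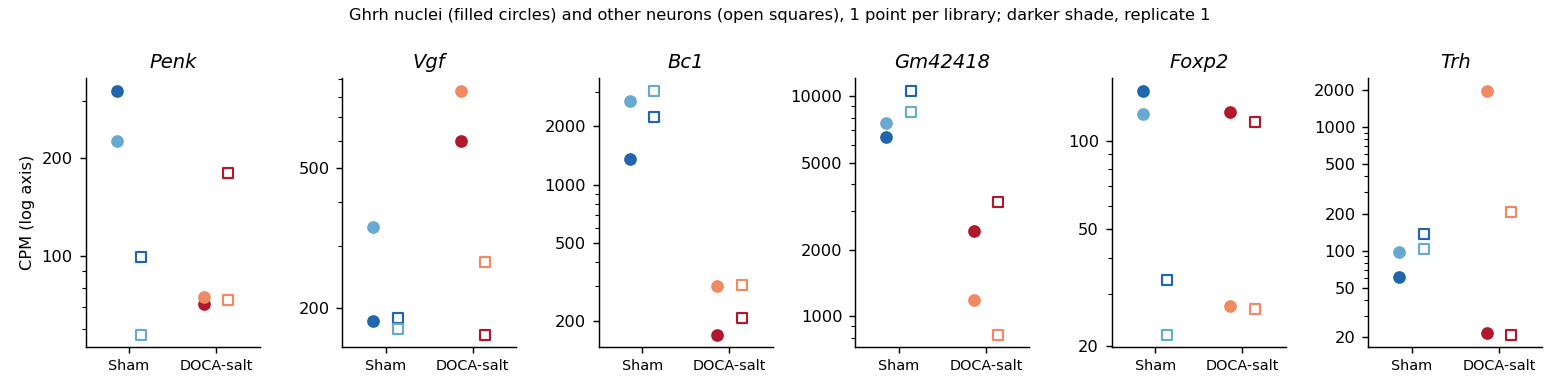
CPM (vertical, log scale) of 6 genes by treatment, 1 point per library, with members as filled circles and other neurons as open squares. Penk of the members is lower in both DOCA-salt libraries (71.6 and 75.1 CPM) than in both Sham libraries (323 and 226 CPM), Bc1 and Gm42418 are lower after DOCA-salt in both sets of nuclei, and Trh is high in the members of DOCA-salt 2 only.

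The shares of neurons that were members overlapped between treatments. It was 1.22%, 0.225%, 0.415% and 0.840% of neurons, with exact (Clopper-Pearson) 95% intervals of 0.987 to 1.50%, 0.155 to 0.316%, 0.190 to 0.785% and 0.624 to 1.11%, which cover counting error only. The means were 0.725% ± 0.707 (SD, n = 2) after DOCA-salt and 0.627% ± 0.301 (SD, n = 2) in Sham (exact two-sided permutation test p = 1.0, and the smallest p that 2 against 2 libraries allow is 0.333). The DOCA-salt libraries held the highest and the lowest share, so the spread within a treatment exceeded the difference between treatments. After thinning every nucleus to 2000 UMIs the shares were 1.74%, 0.299%, 0.336% and 1.24%.

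**Figure D5:**
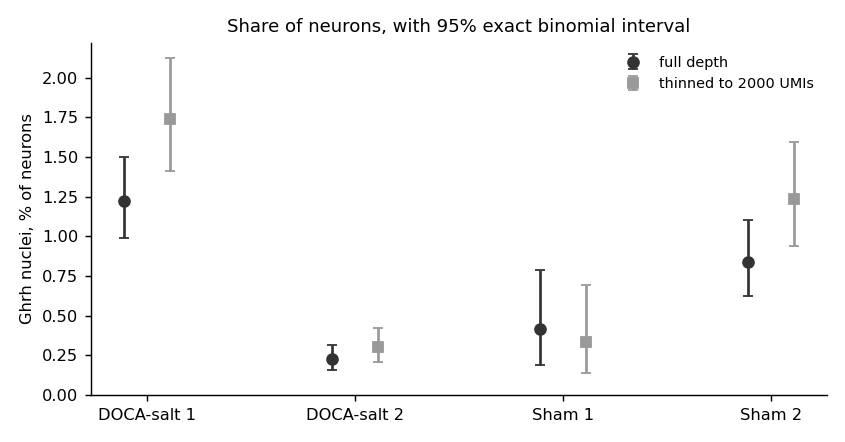
Share of neurons that are members (vertical, percent) in each library, at full depth and after thinning to 2000 UMIs, with exact 95% binomial intervals. DOCA-salt 1 at 1.22% and DOCA-salt 2 at 0.225% lie on either side of both Sham libraries.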

How the data were processed

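Single-nucleus RNA libraries of 4 pools were used. The authors deposited whole UMI counts per gene and barcode, made with Cell Ranger 3.0.1 on GRCm38, with barcodes already called as nuclei. Whether intronic reads were counted is not given in the sources used here. Deposited totals were 45126915, 79437196, 53257230 and 59293582 UMIs. Nuclei with 201 to 6999 genes, fewer than 25000 UMIs and under 15% mitochondrial UMIs were kept. No doublet caller was run. An alternative left out nuclei with 5 or more glial or vascular UMIs. Oligodendrocyte nuclei held 5 or more marker UMIs that made up at least 2%. Somatostatin neurons held at least 3 Sst UMIs and 0.1%, and dopaminergic neurons at least 2 Th and 1 Slc6a3 UMIs. The members and the gene lists were chosen with earlier results of these data known.

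Counts were summed per library and class, since nuclei are not replicates, and tested with edgeR 4.0.16 (TMM scaling, its default filter of low counts, quasi-likelihood test, library as a term in comparisons of classes, Benjamini-Hochberg FDR under 0.05). CPM is the count scaled to a sum of 1e6 UMIs. Errors of log2 fold changes are the fold change divided by the square root of the F statistic. They are errors of the fit and not the spread of the values between libraries. DESeq2 1.42.0 was an alternative, as were other scaling, filters, limits of the rule and leaving out each library. Shares were compared with an exact permutation test (Python 3.11.15). Named genes were those of the lists, and, in each direction, the 10 called genes with the largest fold and the same direction in every library and at least 50 CPM in 2 libraries. Between treatments, the named genes were the 10 largest called whose groups did not overlap. Col6a1 and Pbx3 fall outside that rule in the interaction and were named after their values were seen. The most abundant gene of some marker lists is not reported here. The procedures were tested on simulated data.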

Additional observations from a re-analysis of the deposited data

Results flagged for a closer look

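The change after DOCA-salt differed between members and other neurons for 6 genes by the interaction test (edgeR, log2 scale, FDR over 14900 genes). Penk had a difference of -2.85 ± 0.29 (FDR = 2.6e-18) and Trh one of 2.93 ± 0.27 (FDR = 1.7e-22). The errors are those of the fit and not the spread between libraries. Without DOCA-salt 2, where 5 nuclei held most of the Trh UMIs of members, the Trh difference was 0.45. Vgf had a difference of 1.07 ± 0.21 (FDR = 0.0022). Foxp2 had a difference of -2.22 ± 0.35 (FDR = 7.5e-07), with 126, 27.3, 148 and 123 CPM in members and 116, 26.8, 33.6 and 21.8 CPM in other neurons. Its high value in other neurons was in DOCA-salt 1, where markers of striatal type neurons summed to 447 CPM against 100.3, 91.6 and 114 CPM, and their part was not tested. Col6a1 had a difference of -3.42 ± 0.69 (FDR = 0.0025) on 10, 2, 1 and 15 UMIs in members, whose levels overlapped between treatments. Pbx3 had a difference of -1.66 ± 0.35 (FDR = 0.0068), with 60.7, 61.5, 114 and 152 CPM in members and 42.5, 16, 30.9 and 22.5 CPM in other neurons, where the treatments overlapped. Without DOCA-salt 1, the calls of Vgf, Penk, Foxp2, Col6a1 and Pbx3 were lost (FDR = 0.91, 0.098, 0.67, 1.0 and 1.0), at differences of 0.86, -1.90, -2.41, -1.28 and -0.63. Over the 13 alternatives, the difference of Foxp2 ranged from -2.77 to -1.94 and passed in 10.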

How the results depend on the processing

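The 4 libraries, and 9 members in Sham 1, limit every comparison. Of 478 values of named genes against other neurons under the alternatives, 449 kept their direction and side of the threshold, 24 lost their call and 5 reversed: Penk (-0.64 without nuclei of 5 or more glial or vascular UMIs, and -0.14 to 1.46 with 1 library left out, lowest without Sham 2), Ddc (0.033 in nuclei of the members' depth range, and -0.38 to 0.28 with 1 library left out, highest without DOCA-salt 1) and Trh (-0.34 to 1.89 with 1 library left out, lowest without DOCA-salt 2). The cause was not tested. The 884 calls against other neurons became 376 with DESeq2, 336 without nuclei of 5 or more glial or vascular UMIs, which leaves no member in Sham 1, and 118 with no library block, and ranged from 373 to 797 when 1 library was left out. The 487 calls against somatostatin neurons became 145 with DESeq2 and 68 with no library block (207 to 528 with 1 library left out), and the 158 against dopaminergic neurons became 10 and 18 (15 to 227). Between treatments, the 3 calls became 1 with DESeq2, 7 with no filter of low counts, 6 with Ghrh at 5 or more UMIs and 0.2%, and 1 with sums thinned to the smallest, and 5 to 69 with 1 library left out. Of 69 values of the 5 named genes between treatments, 54 kept their side of the threshold, 5 lost their call (Penk in 3 and Gm42418 in 2) and 10 passed it anew (mt-Atp8 in 7 and Vgf in 3). Of 78 values in the interaction, 59 kept their side and 19 lost their call. The 6 interaction calls became 3 with the stricter Ghrh limits and 1 without nuclei of 5 or more glial or vascular UMIs (1 to 7 with 1 library left out). The single call of the Gal comparison became 0 with DESeq2, 2 with no filter and 0 with no library block. The difference in share of 0.0978 percentage points turned to -0.402 without DOCA-salt 1 and -0.115 without Sham 1, and reached 0.598 without DOCA-salt 2. Leaving out a library was not possible for the Gal and Th comparisons, which rest on 2 libraries each.

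Same-numbered libraries did not deviate together (r = -0.0531 over 5883 genes), so the numbers were not taken as pairs. With the replicate block, 10 genes were called between treatments (3 higher and 7 lower), Penk among them (-1.92, FDR = 0.0014) and Vgf (1.48, FDR = 0.0098). Alternatives chosen after seeing the data kept members with at least 1 Gal UMI (409 higher and 439 lower against other neurons, 3 calls between treatments and 6 in the interaction) or left out nuclei with 1% or more glial or vascular UMIs (401 higher and 452 lower, 3 and 6).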
